A study of Mus musculus with 24 samples.

Results

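The difference between Ado KO and control MC38 cells in their response to 6 h of TNF was measured gene by gene. For each gene the response was the mean log2 level after TNF 6 h minus the mean level in untreated cells, and the value described here, called the interaction, was the Ado KO response minus the control response. It was taken over 16 of the 24 libraries of the series, with 4 in each of 4 groups: Ado KO cells with TNF 6 h, control cells with TNF 6 h, Ado KO cells untreated, and control cells untreated. Of 15390 genes in the table, 13272 passed a filter on low values and were tested. MC38 is a mouse colon carcinoma line. The Ado KO cells carried guide RNA 1 or 2 against Ado and the control cells control guide RNA 1 or 2, so that each group held 2 libraries of each of 2 guide populations, named below by guide and replicate number (2-1 is replicate 1 of guide 2). RNA was read as 3' tags, and levels are the deposited log2 CPM, tag counts scaled to a common total per library. Nothing in the labels says whether populations were clones or whether replicates were separate cultures, so p-values refer only to the variation among these libraries, part of which may be technical. No untreated library carries a time, so TNF and 6 h in culture cannot be told apart in either response.

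TNF binds its receptor and switches on NF-kB, which drives genes for its own inhibitors, chemokines and adhesion molecules. The product of Ado is a dioxygenase of thiols, which acts on cysteamine and on cysteines at the N-terminus of certain proteins. Small nucleolar RNAs (snoRNAs), most of which are cut from introns of host genes in mouse, guide chemical modification of ribosomal and other RNAs; those of the H/ACA type end in an ACA box and guide pseudouridylation. Small nuclear RNAs such as U1 act in splicing. Mature RNAs of these classes lack the long poly(A) tail on which 3' mRNA kits prime.

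Gm24616 and Snora30, the pair with the smallest p, are snoRNA genes, followed by the long non-coding snoRNA host Snhg12. The sequences below are the transcripts of GENCODE M21 (GRCm38), shown because they carry the result: 3 snoRNAs with the ACA box in capitals, a pair of near-identical miRNA-type gene models with the differing base of the second in capitals, and a U1 gene with the stretch that pairs with 5' splice sites in capitals. They lie at chr16:23111617-23111755 on the plus strand (Gm24616), chr7:127527874-127528003 plus (Snora30), chr9:120128780-120128935 plus (Gm24044), chr16:11144125-11144181 plus (Gm23935), chr13:9834469-9834525 minus (Gm24187) and chr3:96460024-96460189 minus (Rnu1b6).
Gm24616: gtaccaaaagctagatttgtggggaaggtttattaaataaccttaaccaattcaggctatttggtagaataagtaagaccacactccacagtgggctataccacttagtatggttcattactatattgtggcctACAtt
Snora30: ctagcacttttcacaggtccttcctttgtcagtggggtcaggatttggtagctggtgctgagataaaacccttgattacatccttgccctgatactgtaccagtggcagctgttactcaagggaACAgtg
Gm24044: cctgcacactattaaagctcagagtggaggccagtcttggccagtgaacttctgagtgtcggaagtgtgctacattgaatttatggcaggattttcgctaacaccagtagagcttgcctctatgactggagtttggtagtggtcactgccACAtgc
Gm23935: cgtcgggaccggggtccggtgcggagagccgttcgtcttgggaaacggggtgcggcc
Gm24187: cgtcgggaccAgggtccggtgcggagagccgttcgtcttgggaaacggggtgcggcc
Rnu1b6: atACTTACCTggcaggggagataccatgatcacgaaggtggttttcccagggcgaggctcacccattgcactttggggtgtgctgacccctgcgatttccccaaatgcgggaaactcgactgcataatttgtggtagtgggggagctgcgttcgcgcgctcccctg

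Most genes called in the interaction were small non-coding RNAs, whose levels after TNF 6 h exceeded the untreated levels by less in Ado KO cells than in control cells. Limma called 46 of 13272 genes at an adjusted p under 0.05 (0.347%), all 46 with the smaller response in Ado KO cells and none with the larger one. At an unadjusted p under 0.05 the split was 443 higher and 450 lower. In bulk RNA, fewer responding cells and a smaller response per cell cannot be told apart. Of the 46, 40 were small RNA genes by their annotation, namely 26 snoRNAs, 7 snRNAs, 5 miRNA-type models, 1 misc_RNA and Mir1949, a symbol shared by a snoRNA and a miRNA gene. The called interactions ran from -3.58 to -0.97 log2 with a median of -1.47. For genes not named Sno, Scarna, Gm, Hist, Rn7, Rnu or Mir, 5 of 11286 were called (0.0443%), against 41 of 1986 genes with those names (2.06%). The 5 were Snhg12, Snhg4, Snhg17, Lars2 and Itga11. The called gene that is in neither set, Gm12238, is a sense-intronic model that overlaps the called snoRNA Gm22884 on the same strand. Both had the same estimates (interaction -1.33), so they are not separate measurements.

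The count rested on some of the 4 guide populations. Without Ado KO guide 2 limma called 1 gene, Gm24616, and without control guide 1 it called 7. Without Ado KO guide 1 it called 45, and without control guide 2 it called 64, of which 9 were higher. Leaving out 1 library at a time gave 27 to 52 calls, with 27 without control TNF 6 h library 1-1 and 28 without Ado KO untreated library 2-1. Removing the listed names and quantile normalising again left 3 of the 5 calls outside those names, Snhg12, Snhg4 and Snhg17.

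**Figure D1:**
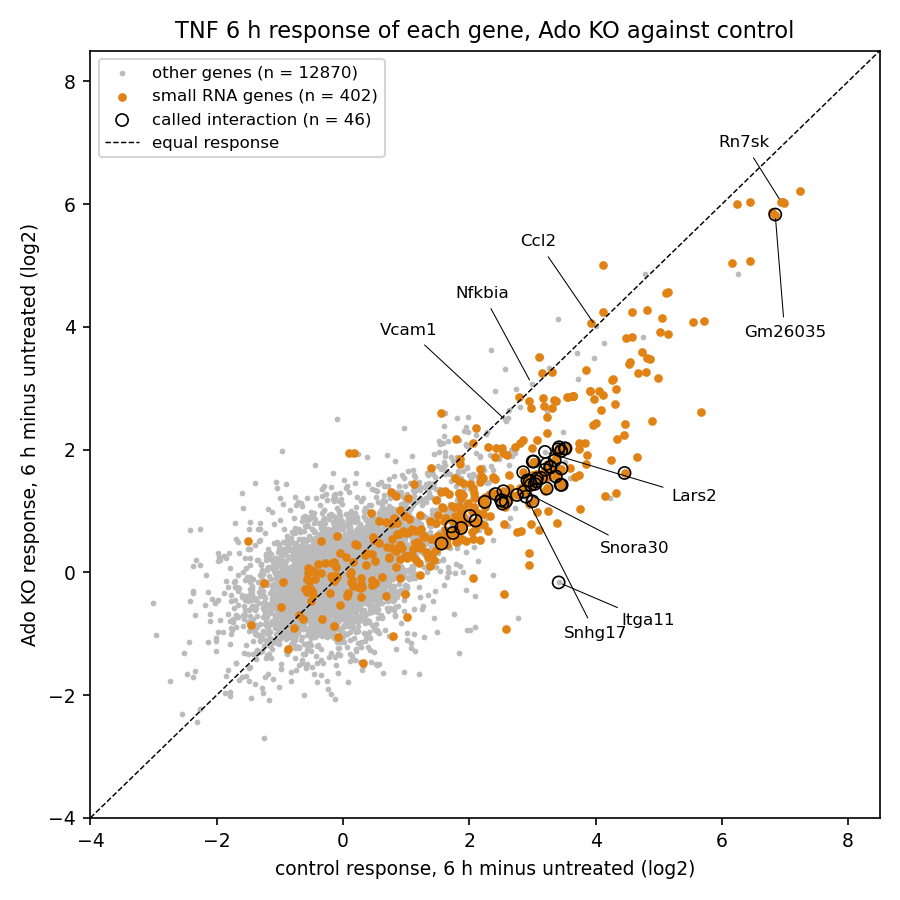
TNF 6 h response (log2, 6 h minus untreated) of each of 13272 genes in Ado KO cells (y axis) against control cells (x axis), with the 402 small RNA genes in orange, the 46 called genes ringed and the dashed line at equal response. The ringed genes lie below the line, while Nfkbia, Ccl2 and Vcam1 lie close to it.

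Among the snoRNAs, Gm24616, which lies inside the translation factor gene Eif4a2, had the smallest p. Its level after TNF 6 h was 8.08, 8.12, 7.89 and 7.99 log2 CPM in the Ado KO libraries (1-1, 1-2, 2-1 and 2-2, the order used throughout), against 8.98, 8.86, 8.75 and 8.70 in the control libraries. Untreated, it was 6.62, 6.58, 6.86 and 6.98 in Ado KO cells and 5.85, 5.85, 6.36 and 6.20 in control cells. The groups overlapped at neither time, and their order differed: Ado KO was below control after TNF 6 h and above it untreated. The response was 1.26 log2 (2.40-fold) in Ado KO and 2.76 (6.75-fold) in control cells, an interaction of -1.49 ± 0.15 (SE; limma adjusted p = 9.1e-07).

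Snora30, an H/ACA snoRNA inside Srcap, had the same order. It stood at 7.16, 6.92, 7.11 and 6.92 log2 CPM in Ado KO libraries with TNF 6 h and at 8.37, 8.11, 8.13 and 7.86 in control libraries with TNF 6 h. Untreated, the values were 5.59, 5.57, 5.76 and 5.94 in Ado KO and 5.10, 5.24, 5.39 and 5.26 in control cells. Again no Ado KO library overlapped a control library at either time, and the response was 2.49-fold in Ado KO and 7.30-fold in control cells, with an interaction of -1.55 ± 0.19 (SE; limma adjusted p = 2.3e-05).

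Gm24044, 1 of 3 called snoRNAs inside the ribosomal protein gene Rpsa, read 6.11, 5.97, 6.03 and 5.98 log2 CPM in Ado KO and 6.83, 6.78, 6.61 and 6.55 in control cells after TNF 6 h. Untreated it read 4.61, 4.58, 5.15 and 5.14 in Ado KO and 3.87, 3.84, 4.46 and 4.27 in control cells. The groups did not overlap at either time, and the guide 2 populations of both genotypes were higher than the guide 1 populations when untreated (interaction -1.43 ± 0.21, SE; limma adjusted p = 0.00031). The other called snoRNAs named after their values were seen include Snora47 inside Zbed3 (-1.57 ± 0.24, SE), Gm26447 inside Eif4a2 (-1.86 ± 0.29), Snora3 inside Rpl27a (-1.81 ± 0.35) and Snord13, which lies in no annotated gene of its strand (-1.60 ± 0.26). Snora20, Snora62, Snord14c and Snord92 were also called, at -1.53, -2.02, -1.47 and -2.84, but Snora62 lost its call in 6 of 16 fits without 1 library, Snord14c in 9 and Snord92 in 10. Snord92 was at the bottom of the scale in 1 untreated control library, which leaves its size uncertain. Gm26205 inside Rpl6 and Gm22748 inside Odc1 (-1.09 and -1.22) are similar in sequence to each other and to further snoRNAs, so reads may be shared.

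Over all snoRNAs, 228 of the 285 in the table passed the filter. A snoRNA that passed only through its TNF 6 h libraries had to respond. One that passed only through the control TNF 6 h libraries also had to be lower in Ado KO cells at 6 h. The filter can thus favour estimates below 0, here, in the other small RNA classes and in the small RNA share. How many genes passed in that way was not counted. Of the 228, 26 were called (11.4%, against 0.347% of all genes tested), 209 had an estimate below 0 and 19 above 0. Their median interaction was -1.02, against 0.03 over all genes tested. The median response of those 228 was 1.45 with Ado guide 1 and 0.80 with Ado guide 2, against 2.45 with control guide 1 and 1.87 with control guide 2. The median difference of Ado KO from control was -0.63 after TNF 6 h and 0.46 in untreated cells, so both times contributed. For 146 of the 228 (64.0%) both Ado populations responded less than both control populations, which held for 15.6% of all genes tested, while 19.5% of all genes had both Ado populations above both control populations.

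Features of the snoRNA sequences are given as a description. An ACA within the last 8 bases, read on the transcript strand, ended 22 of the 26 called snoRNAs (84.6%) and 119 of 216 tested snoRNAs with 1 annotated sequence (55.1%). The median interaction was -1.09 for the 119 with ACA and -0.84 for the 97 without, so the smaller response was not limited to the H/ACA end. By name, 7 of 35 Snora genes were called (20%, median -0.85) and 3 of 47 Snord genes (6.38%, median -1.04), against 0.347% of all genes tested. Near-identical copies limit the count of separate RNAs: 33 of 39 called small RNAs with 1 annotated class had a similar transcript elsewhere (at least 85% identity over at least 50 bases), and joining similar ones left 27 groups. The 6 with none were Snora47, Snord13, Snora20, Snora62, Snord92 and Gm22620.

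**Figure D2:**
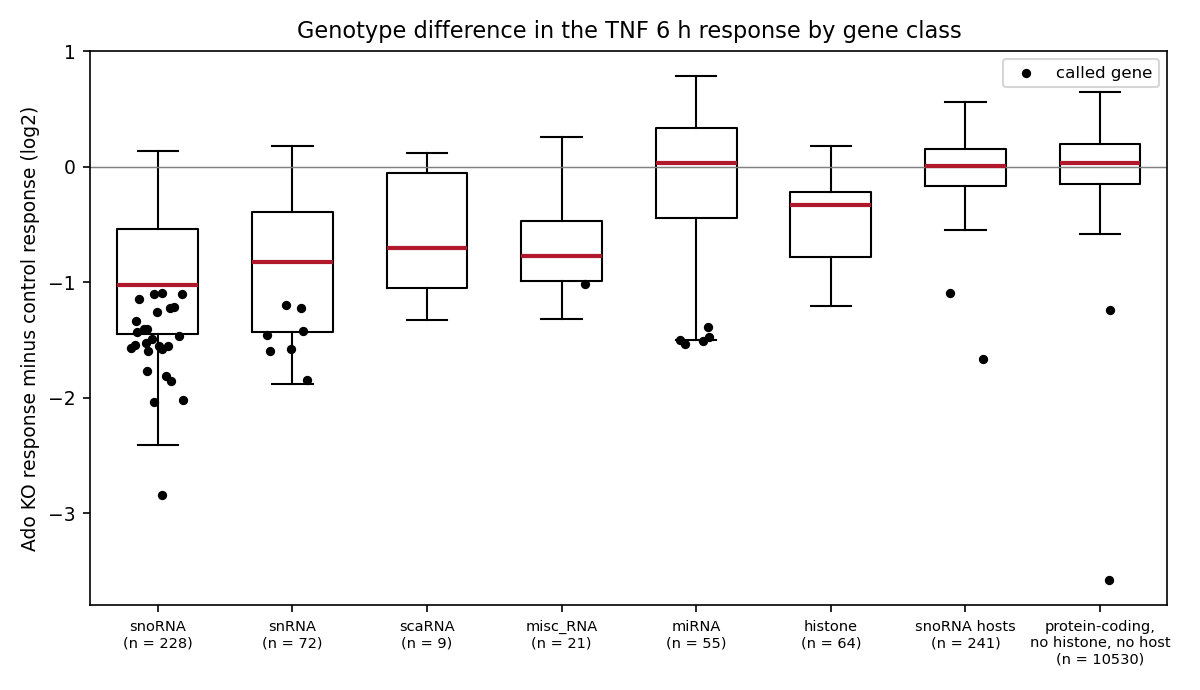
Interaction (Ado KO response minus control response, log2) by gene class, with boxes from the first to the third quartile, a red median, whiskers at the 5th and 95th percentiles and called genes as black dots. The median is -1.02 for 228 snoRNAs, -0.82 for 72 snRNAs and 0.03 for 10530 protein-coding genes that are neither histone genes nor snoRNA hosts.

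Host genes of snoRNAs mostly did not share the difference. Of 24 called snoRNAs inside a gene of the same strand, those in Rpsa and Rpl27a had host messages at 0.05 ± 0.08 and 0.13 ± 0.09 (SE), and 26 called small RNAs lay inside 21 tested hosts whose median interaction was -0.04, with 11 hosts below 0. For 11 called snoRNAs an annotated transcript of the host matched the snoRNA (at least 85% identity over at least 50 bases). Whether it holds the whole snoRNA was not checked, and host and snoRNA reads may not be told apart there. Limma called 2 of 241 host genes (0.83%, against 0.347% of all genes tested), Snhg12 and Snhg17, both non-coding. Among 25 non-coding hosts 19 had an estimate below 0 (median -0.15), and among 216 protein-coding hosts 97 did (median 0.03).

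Snhg12, a non-coding host of 5 annotated snoRNAs (chr4:132308623-132311024, plus strand), read 6.12, 6.06, 5.99 and 5.86 log2 CPM in Ado KO and 6.65, 6.55, 6.71 and 6.52 in control cells after TNF 6 h. In untreated cells it read 4.86, 4.87, 5.33 and 5.29 in Ado KO and 4.56, 4.61, 4.74 and 4.47 in control cells. The groups did not overlap at either time. The response was 1.89-fold in Ado KO and 4.03-fold in control cells (interaction -1.09 ± 0.15, SE; limma adjusted p = 0.00014). Snora44, which lies within it, had an interaction of -1.41 ± 0.19 (SE, limma adjusted p = 0.00014), and a Snhg12 transcript matched it in sequence.

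Snhg17, on chromosome 2, read 5.58, 5.43, 5.51 and 5.60 log2 CPM in Ado KO and 6.80, 6.64, 6.37 and 6.20 in control cells after TNF 6 h. Its untreated levels were 3.91, 3.84, 4.93 and 4.50 in Ado KO and 3.55, 3.15, 4.00 and 3.71 in control cells. The 6 h groups did not overlap and the untreated groups did. Its interaction was -1.67 ± 0.28 (SE; limma adjusted p = 0.0012). Snhg4, whose symbol is not in the annotation used, read 7.29, 6.85, 7.18 and 7.11 in Ado KO and 8.22, 7.92, 7.81 and 7.66 in control cells after TNF 6 h. Untreated, it read 6.34, 6.25, 6.48 and 6.35 in Ado KO and 6.26, 6.21, 6.24 and 6.03 in control cells. The 6 h values were apart and the untreated ones overlapped slightly (interaction -0.97 ± 0.14, SE; limma adjusted p = 0.00014). Other non-coding hosts missed the threshold, with Snhg20 at -0.58, Snhg15 at -0.72 and Dancr at -0.73 (limma adjusted p = 0.182, 0.349 and 0.261). Eif4a2, the host of Gm24616, stood at -0.74 ± 0.18 (SE; limma adjusted p = 0.082).

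**Figure D3:**
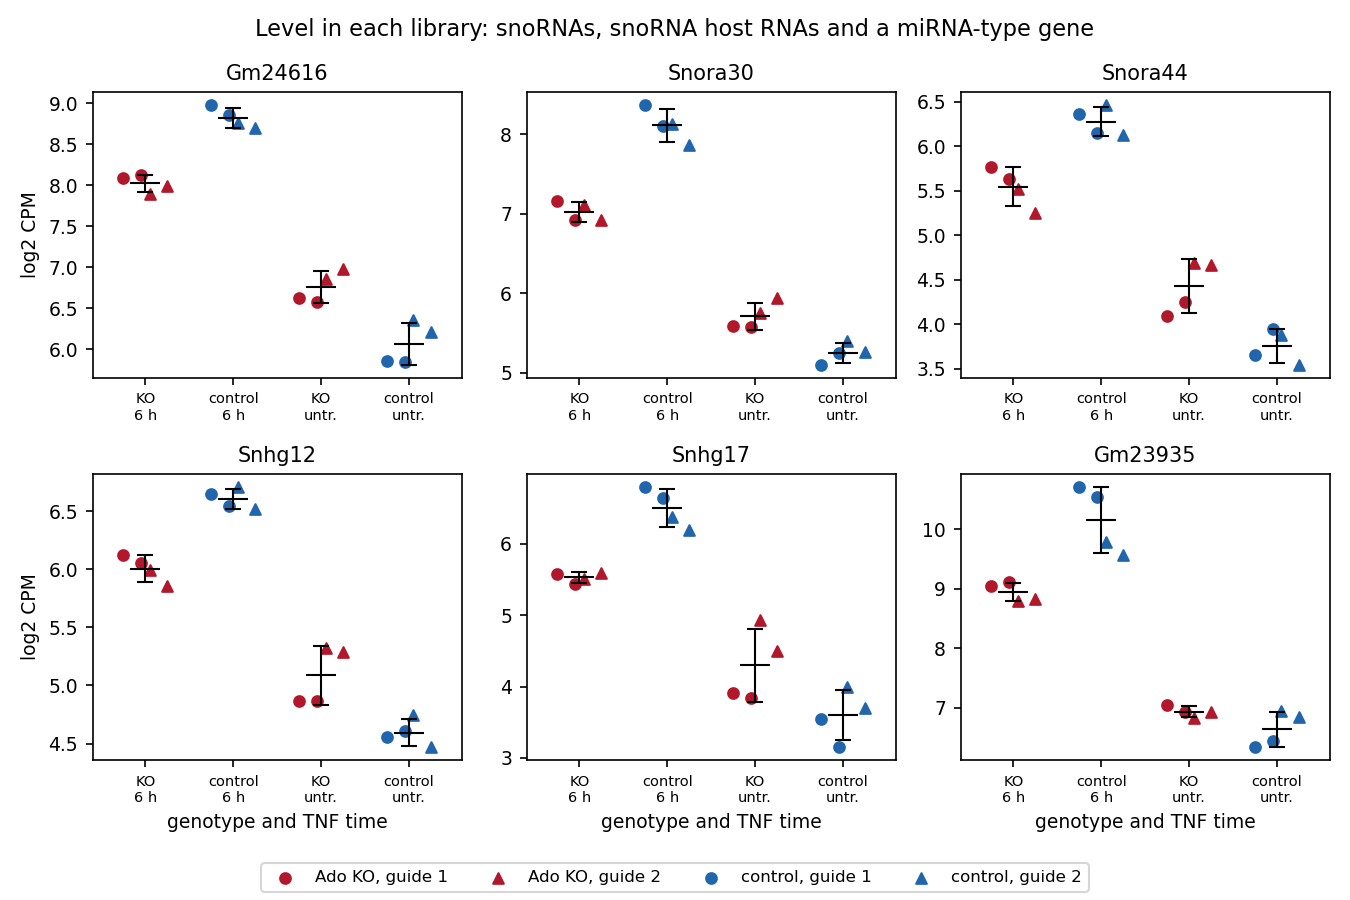
Level (log2 CPM) of 3 snoRNAs, 2 non-coding snoRNA hosts and a miRNA-type gene in each of 16 libraries, Ado KO in red and control in blue, guide 1 as circles and guide 2 as triangles, with the mean and SD of 4 libraries. Red points lie below blue ones after TNF 6 h in each panel, and Gm23935 differs between the control guides.

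The 7 called snRNAs were all U1 genes or U1-like. Rnu1b6 read 4.24, 4.09, 4.08 and 4.18 log2 CPM in Ado KO and 5.57, 5.20, 4.92 and 4.66 in control cells after TNF 6 h. It read 2.05, 2.68, 2.80 and 2.54 in Ado KO and 2.06, 2.25, 2.26 and 2.37 in control cells when untreated. The groups were apart only at 6 h, with an interaction of -1.22 ± 0.27 (SE; limma adjusted p = 0.029), a call lost in 11 of 16 fits without 1 library. Another 5 of the 7, also on chromosome 3, were 97.0% to 100% identical to it over 166 bases, and Gm23240 was 95.9% identical over 73 bases. All 7 hold the ACTTACCT stretch in capitals above, so they may share reads and are not 7 separate measurements. Over the class 7 of 72 snRNAs were called (9.72%, against 0.347% of all genes tested), with a median interaction of -0.82.

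The 5 called miRNA-type models (Gm23935, Gm24245, Gm24270, Gm24187 and Gm25911) were 56 or 57 bases long, and 3 had the identical sequence printed above for Gm23935. Gm23935 read 9.05, 9.11, 8.80 and 8.83 log2 CPM in Ado KO and 10.71, 10.54, 9.79 and 9.56 in control cells after TNF 6 h. Untreated, it read 7.04, 6.93, 6.82 and 6.93 in Ado KO and 6.34, 6.44, 6.94 and 6.84 in control cells. The groups were apart at 6 h, where control guide 1 stood highest, and overlapped when untreated (interaction -1.50 ± 0.24, SE; limma adjusted p = 0.00085). No further miRNA-type gene was called, and the median of all 55 was 0.03.

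Some structural RNAs had large responses in both genotypes. Gm26035, a misc_RNA gene model on chromosome X, read 8.89, 8.77, 8.63 and 8.64 log2 CPM in Ado KO and 10.01, 9.99, 9.54 and 9.39 in control cells after TNF 6 h, with 2.32 to 3.31 in Ado KO and 2.75 to 2.97 in control cells untreated. Only the 6 h values were apart (interaction -1.01 ± 0.22, SE; limma adjusted p = 0.027), and the call was lost in 10 of 16 fits without 1 library. Rn7sk, which sequesters the elongation factor P-TEFb, had a response of 65.3-fold in Ado KO and 123-fold in control cells, but its interaction of -0.91 ± 0.24 (SE) was not called (limma adjusted p = 0.14). It was called in 5 of 27 alternative settings (limma adjusted p from 0.000741 to 1), and against the controls for each Ado guide alone (-0.98 for guide 1 and -0.85 for guide 2; limma adjusted p = 0.0142 and 0.0276). Rpph1, the ribonuclease P RNA, stood at -0.91 ± 0.28 (SE; limma adjusted p = 0.325). None of 9 scaRNAs, which guide modification of snRNAs, was called (3 lower and 0 higher at an unadjusted p under 0.05), nor any of 64 histone genes (12 lower and 0 higher unadjusted), whose median was -0.33 with 59 below 0.

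Outside these classes limma called 2 protein-coding genes. Lars2 (chr9:123366927-123462666), the mitochondrial leucyl-tRNA synthetase gene, read 6.45, 6.24, 6.46 and 6.25 log2 CPM in Ado KO and 8.17, 7.98, 7.19 and 6.90 in control cells after TNF 6 h. It read 4.52, 4.20, 4.37 and 4.47 in Ado KO and 4.15, 4.45, 4.68 and 4.16 in control cells when untreated. Genotypes were apart at 6 h, with control guide 1 highest as for Gm23935, and overlapped when untreated. Its interaction was -1.24 ± 0.27 (SE; limma adjusted p = 0.027), lost in 10 of 16 fits without 1 library. Itga11, a collagen-binding integrin subunit gene, was read at 0.35, 1.07, 0.79 and -1.18 in Ado KO and 1.99, 1.86, 1.44 and 1.71 in control cells after TNF 6 h. Untreated it was -0.09, 0.92, 0.16 and 0.69 in Ado KO and -3.35, -1.70, -0.67 and -0.95 in control cells. At both times the groups were apart, with Ado KO lower at 6 h and higher untreated. These levels are close to the bottom of the scale at -3.35, so the size of its interaction (-3.58 ± 0.80, SE; limma adjusted p = 0.029) is poorly defined, and the call was lost in 10 of 16 fits without 1 library.

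Each guide was then compared on its own. Against both control populations, limma called 30 genes with Ado guide 1 (0.226%), 29 lower and 1 higher, and 86 with Ado guide 2 (0.648%), 80 lower and 6 higher. Both comparisons share the control libraries. Gm24616 stood at -1.25 ± 0.14 with Ado guide 1 and -1.74 ± 0.14 with Ado guide 2 (SE; limma adjusted p = 2.6e-05 and 6.2e-08), Snora30 at -1.41 ± 0.23 and -1.70 ± 0.23, and Snhg12 at -0.79 ± 0.15 and -1.40 ± 0.15. Outside the listed names, Ado guide 1 also had Gimap1 (-4.72) and Wdr47 (-3.69), both at low levels, mt-Co1 (-0.53) and, as its only higher gene, the interferon-stimulated gene Rsad2 (0.91 ± 0.18, SE; limma adjusted p = 0.015). Ado guide 2 had Eif4a2 (-0.98), Snhg15 (-1.06) and Snhg20 (-0.81) lower, and the interferon-stimulated gene Isg15 (0.75) and Apol9a (1.11) higher. Ado guide 2 against Ado guide 1 gave 0 called genes by limma (at an unadjusted p under 0.05, 398 were higher and 415 lower).

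The 2 control guides differed from each other too, mostly in genes of the listed names. For control guide 2 against control guide 1 limma called 18 genes (0.136%), 15 lower and 3 higher, and 14 of the 18 carried the listed names, as did 1986 of all 13272 genes tested. Of the 46 genes called in the interaction 4 were among the 18, all of them miRNA-type models, and none of the 26 called snoRNAs or 7 called snRNAs was. Still, 22 of these 26 snoRNAs responded less with control guide 2 than with control guide 1, and 4 responded more (median difference -0.52). All 7 snRNAs responded less (median difference -0.78). The median interactions of Ado KO against control were -1.51 for these snoRNAs and -1.46 for these snRNAs. As these genes were picked by their interaction, the 2 kinds of difference cannot be compared in size on them. Over all 72 tested snRNAs the median response was 3.15 with control guide 1 and 2.49 with control guide 2. With both Ado guides it was 1.47 (median interaction -0.82). Over 21 misc_RNA genes it was 3.44 and 1.35 with the control guides. With Ado guides 1 and 2 it was 0.91 and 1.66 (median interaction -0.77). Gm23935 was lower by 1.45 in control guide 2 (limma adjusted p = 0.00024) and Rn7sk was lower by 1.31 (limma adjusted p = 0.0045), beside interactions of Ado KO against control of -1.50 and -0.91. Gm24616 and Snora30 stood at -0.63 and -0.40 between the control guides and were not called (limma adjusted p = 0.213 and 0.749). Among the 18 outside the listed names were Rhox5 (-0.92), Nf2 (0.72) and Arhgef25 (1.29). Counts fell without single libraries: 9 with Ado guide 1 without Ado KO TNF 6 h 1-2, 14 and 16 without Ado KO untreated 1-2 and 1-1, and 18 without control TNF 6 h 2-1. With Ado guide 2 the count was 44 without Ado KO TNF 6 h 2-2, 52 without Ado KO untreated 2-1, 55 without control untreated 2-2, and 57 without either Ado KO TNF 6 h 2-1 or control TNF 6 h 2-1. Between the control guides it was 5 without control TNF 6 h 2-2, 9 without control TNF 6 h 1-2 or control untreated 2-2, and 10 without control untreated 1-1.

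Small RNAs took a smaller share of the Ado KO libraries after TNF 6 h. Of 590 small RNA genes in the table the 402 that passed the filter were summed. As said above, the filter can favour a lower Ado KO share at 6 h. These 402 genes held 1.96% to 2.25% of the summed values in Ado KO and 2.81% to 4.24% in control libraries at 6 h. In untreated cells they held 0.764% to 0.786% in Ado KO and 0.652% to 0.740% in control libraries. The groups overlapped at neither time (exact permutation test, two-sided, n = 4 libraries each, p = 0.0286 at each time, the smallest these groups allow). Over 6 such tests of share the adjusted permutation p was 0.0571. The test takes libraries as separate units, although each group held 2 libraries of each of 2 guide populations. At 6 h the share was 4.24% and 4.10% with control guide 1 and 3.015% and 2.81% with control guide 2. It was 2.25% and 2.21% with Ado guide 1 and 1.96% and 1.975% with Ado guide 2. Mitochondrially encoded messages moved with the small RNAs at 6 h, at 2.36% to 2.62% in Ado KO and 2.88% to 3.27% in control libraries (exact permutation p = 0.0286, adjusted p = 0.0571). When untreated they overlapped, at 2.04% to 2.40% in Ado KO and 1.97% to 2.50% in control libraries (exact permutation p = 0.657, adjusted p = 0.771). At TNF 1 h, where no test was made, the mitochondrial share was 1.84% to 2.48% in Ado KO and 2.55% to 3.58% in control libraries, without overlap, while the small RNA share overlapped at 0.765% to 0.895% in Ado KO and 0.651% to 0.817% in control libraries. The mitochondrial share's part in the result was not tested. Of 13 mitochondrially encoded genes 12 had an interaction below 0 and none was called (5 lower and 0 higher at an unadjusted p under 0.05), with a median of -0.31. Cytochrome oxidase gene mt-Co1 stood at -0.36 ± 0.10, mt-Co3 at -0.37 ± 0.15 and mt-Nd5 at -0.65 ± 0.25 (SE; limma adjusted p = 0.175, 0.621 and 0.621).

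**Figure D4:**
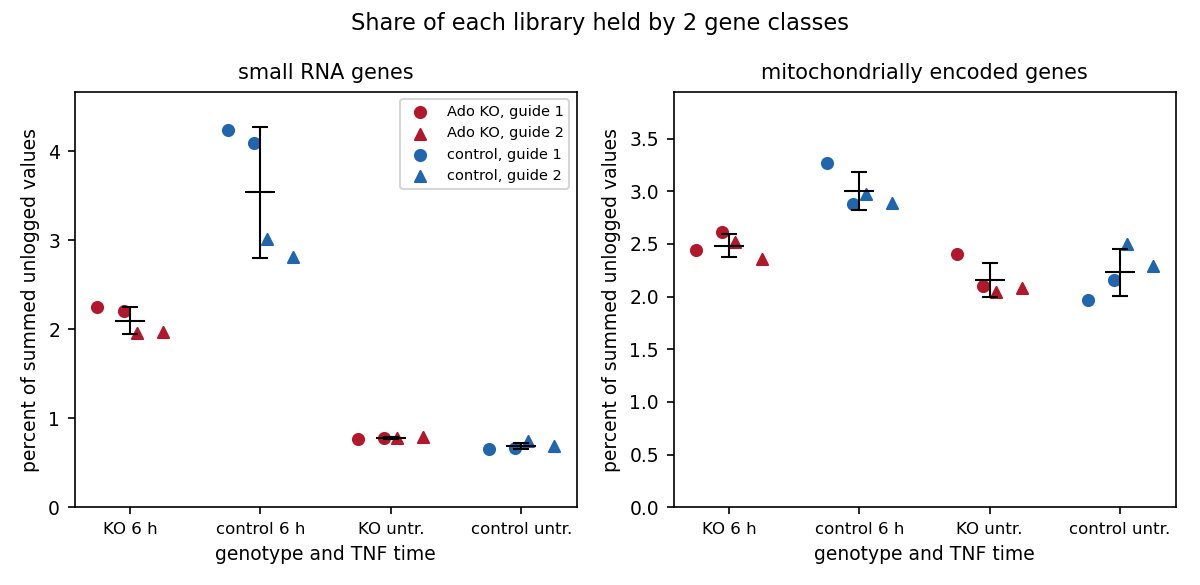
Percent of the summed unlogged values held by small RNA genes (left) and mitochondrially encoded genes (right) in each of 16 libraries, Ado KO in red and control in blue, guide 1 as circles and guide 2 as triangles, with mean and SD of 4 libraries. The small RNA share is 1.96% to 2.25% in Ado KO and 2.81% to 4.24% in control libraries after TNF 6 h.

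NF-kB targets responded in both genotypes with no called difference. Nfkbia, which encodes the NF-kB inhibitor IkB-alpha, read 10.61, 10.59, 10.56 and 10.56 log2 CPM in Ado KO and 10.53, 10.57, 10.48 and 10.50 in control cells after TNF 6 h. Untreated, it read 7.63, 7.47, 7.46 and 7.46 in Ado KO and 7.48, 7.71, 7.34 and 7.61 in control cells. The groups overlapped at both times, and the response was 8.43-fold in Ado KO and 7.92-fold in control cells, an interaction of 0.09 ± 0.11 (SE; limma adjusted p = 0.921). The monocyte chemokine gene Ccl2 stood at 0.02 ± 0.45, the adhesion gene Vcam1 at -0.12 ± 0.13, the NF-kB subunit gene Relb at -0.02 ± 0.13, the growth factor gene Csf1 at 0.15 ± 0.17 and the urokinase gene Plau at -0.07 ± 0.33 (SE; limma adjusted p from 0.907 to 0.998).

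Tnfaip3 (0.07 ± 0.55, SE) and Lif (0.08 ± 0.87) were low when untreated, at -1.70 to -0.33 and -3.35 to 0.16 log2 CPM in Ado KO and -1.76 to -0.06 and -3.35 to 0.21 in control cells. Cxcl1 (-0.40 ± 0.54, SE) read 1.94 to 2.05 log2 CPM in Ado KO and -0.89 to 2.31 in control cells untreated. The errors of these genes leave room for differences as large as those of many snoRNAs. Birc3, which encodes an inhibitor of apoptosis, was at 0.48 ± 0.37, the transcription factor gene Irf1 at 0.26 ± 0.15 and Nfkbie, which encodes IkB-epsilon, at 0.75 ± 0.33 (SE; limma adjusted p = 0.853, 0.785 and 0.671). Cxcl10, an interferon- and TNF-induced chemokine gene, read 6.71, 6.92, 6.56 and 6.56 log2 CPM in Ado KO and 5.24, 5.41, 5.86 and 5.93 in control cells after TNF 6 h, and 3.93, 4.08, 3.66 and 3.27 in Ado KO and 3.28, 2.76, 3.24 and 3.54 in control cells untreated. Ado KO was above control at 6 h without overlap, the untreated groups overlapped, and the interaction of 0.55 ± 0.22 (SE) was not called (limma adjusted p = 0.623).

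**Figure D5:**
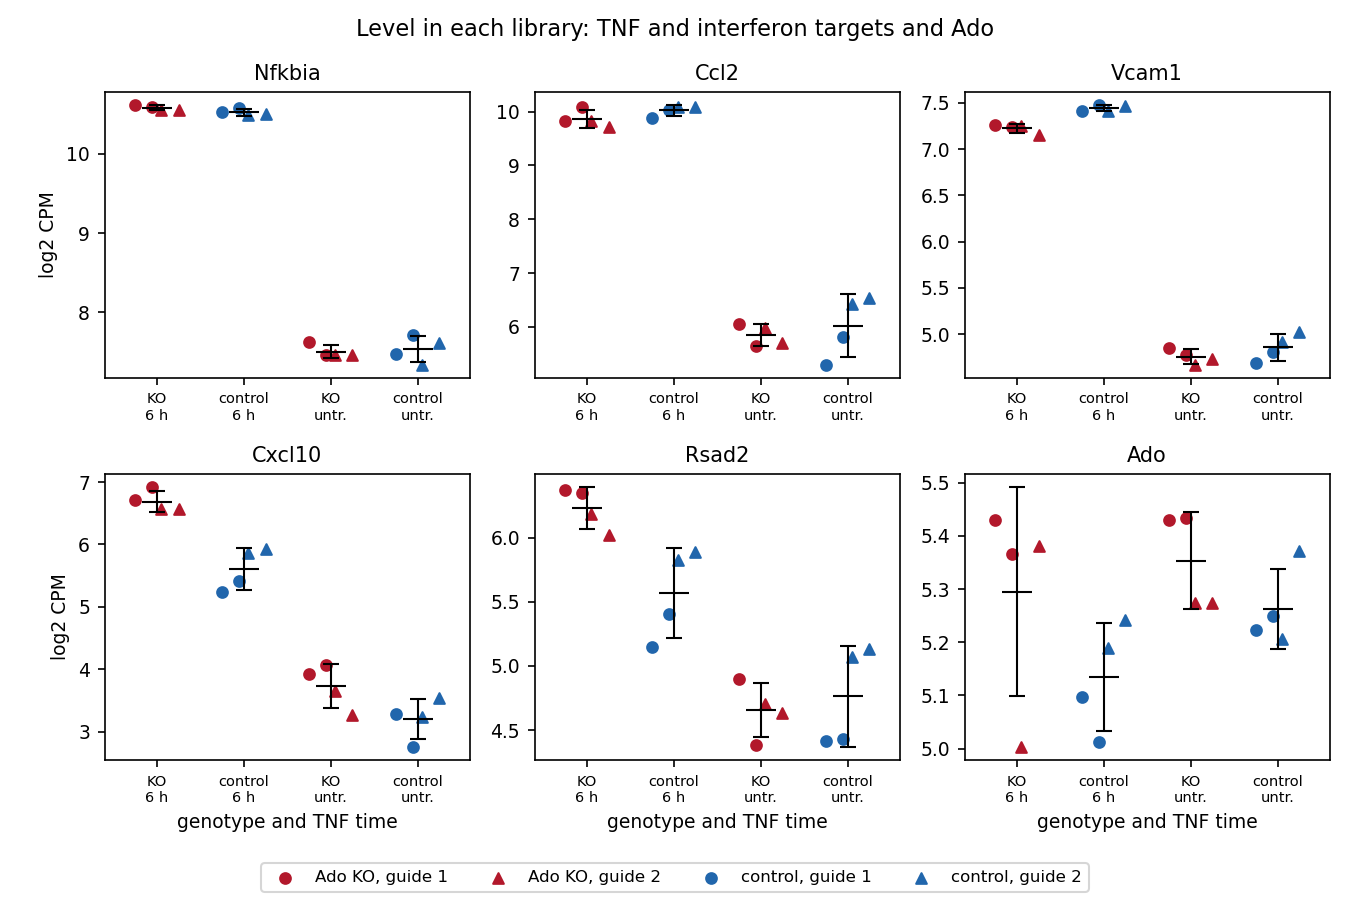
Level (log2 CPM) of NF-kB and interferon targets and of Ado in each of 16 libraries, Ado KO in red and control in blue, guide 1 as circles and guide 2 as triangles, with the mean and SD of 4 libraries. Nfkbia, Ccl2 and Vcam1 have similar steps in both genotypes, and Cxcl10 and Rsad2 are higher in Ado KO than in control libraries after TNF 6 h.

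No member of the 22 pathway and marker lists was called, against 0.347% of all genes tested. Of 29 tested genes for NF-kB subunits and feedback inhibitors, 22 had an estimate above 0 and 4 were higher at an unadjusted p under 0.05, with a median of 0.13. For 13 of the 29 (44.8%, against 19.5% of all genes) both Ado populations responded more than both control populations, and for 0 both responded less. The nearest to a call in it was Otud7b (0.51 ± 0.16, SE; limma adjusted p = 0.376), a deubiquitinase gene, and Tnip1, an A20 partner, stood at 0.43 ± 0.18 (limma adjusted p = 0.656). The 12 chemokine and cytokine genes had a median of 0.05, with Ccl5 at -0.36 ± 0.14, Il33 at 0.45 ± 0.30 and the CSF1 receptor ligand gene Il34 at 0.13 ± 0.14 (SE; limma adjusted p = 0.594, 0.82 and 0.904). Among 42 immediate-early and MAPK feedback genes the median was -0.07, with Egr1 at -0.64 ± 0.20, Ier2 at -0.52 ± 0.21, Junb at -0.29 ± 0.17 and the phosphatase gene Dusp8 at 0.99 ± 0.39 (SE; limma adjusted p from 0.325 to 0.8). The 17 genes for adhesion, proteases and acute phase had a median of -0.05, with the prostaglandin synthase genes Ptgs2 at -0.66 ± 0.26 and Ptges at 0.18 ± 0.10 and the urokinase receptor gene Plaur at -0.71 ± 0.48 (SE; limma adjusted p = 0.609, 0.767 and 0.82).

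Of 52 interferon-stimulated genes 33 had an estimate above 0 and 2 were higher at an unadjusted p under 0.05, with a median of 0.11, and for 22 (42.3%, against 19.5% of all genes) both Ado populations responded more than both control populations. Rsad2, which encodes the antiviral enzyme viperin, read 6.37, 6.35, 6.18 and 6.02 log2 CPM in Ado KO and 5.15, 5.40, 5.83 and 5.89 in control cells after TNF 6 h. Untreated, it read 4.90, 4.39, 4.71 and 4.64 in Ado KO and 4.41, 4.43, 5.07 and 5.13 in control cells. The groups were apart at 6 h and overlapped when untreated, and control guide 1 read lower than control guide 2 at both times (interaction 0.77 ± 0.21, SE; limma adjusted p = 0.168). Ifit3 stood at 0.43 ± 0.24, Irf9, a subunit gene of the interferon-activated complex ISGF3, at 0.27 ± 0.12, Ifitm3 at 0.17 ± 0.09, Isg20 at 0.80 ± 0.42 and Rnf19b at 0.29 ± 0.13 (SE; limma adjusted p from 0.694 to 0.795). The peptide transporter gene Tap1 was at 0.39 ± 0.17 (SE; limma adjusted p = 0.677) among 22 class I presentation genes (median -0.02).

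The remaining lists had medians between -0.31 and 0.06 apart from the small marker lists. Among members with a group mean of at least 2 log2 CPM, those with the smallest p in a list included Bcl2 (-0.66), an inhibitor of apoptosis, Pank3 (-0.49), of coenzyme A synthesis, the G protein regulator gene Rgs2 (-0.82), the hypoxia-inducible Ndrg1 (0.47), the peroxiredoxin gene Prdx1 (-0.25), the p53 target Tigar (0.36), the asparaginyl-tRNA synthetase gene Nars (-0.33), the cholesterol synthesis gene Nsdhl (-0.72), the topoisomerase gene Top2a (-0.41), Acta2 (-0.97), Etv1 (1.31), Gzmb (-1.21), Cspg4 (0.13) and Pdpn (0.11), with limma adjusted p from 0.168 to 0.959. Etv1, an ERK-responsive transcription factor gene, was lower after TNF 6 h in both genotypes, with responses of -1.14 in Ado KO and -2.45 in control cells.

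Genes with the smallest p that missed the threshold, among those with a group mean of at least 2 log2 CPM and both Ado populations on the same side of both control populations, were found in both directions. Those with an interaction above 0 included Chmp7 (0.65 ± 0.16, SE, limma adjusted p = 0.1), an ESCRT-III gene of nuclear envelope sealing. Also above 0 were Tspan15 (1.43), Apol9a (0.85), Apol9b (0.79), Praf2 (0.95), Wdr83 (1.24), Tor2a (0.72) and Lonp2 (1.06). These 7 had adjusted p from 0.165 to 0.234 by limma. All of these genes, Chmp7 included, were lower after TNF 6 h in control cells, at 0.525-fold (Tspan15) to 0.728-fold (Chmp7). In Ado KO cells they stood at 1.03-fold (Apol9b) to 1.42-fold (Tspan15). Chmp7 read 4.64, 4.56, 4.88 and 4.84 log2 CPM in Ado KO and 4.52, 4.57, 4.56 and 4.28 in control cells after TNF 6 h, and 4.52, 4.46, 4.56 and 4.64 in Ado KO and 4.94, 4.85, 5.01 and 4.96 in control cells untreated. Most of its estimate came from the untreated groups, which did not overlap. Apol9a and Apol9b are close paralogs and may share reads. Below 0 were Hbegf (-0.64), an EGF receptor ligand gene, and Pus3 (-0.97), a tRNA pseudouridine synthase gene, at limma adjusted p of 0.168 and 0.243.

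Ado itself did not differ in its response (interaction 0.07 ± 0.14, SE; limma adjusted p = 0.958), and its 16 values lay between 5.00 and 5.43 log2 CPM. Since an edit of a few bases in the coding part may leave the 3' tags as they were, the Ado level is no check of the editing or of the genotype labels. At 1 h of TNF limma called no gene in the corresponding interaction (628 higher and 676 lower at an unadjusted p under 0.05), and the 46 genes had a median 1 h interaction of -0.08. An estimate from the spacing of low values gave 4260000 to 6630000 tags for the 24 libraries. It takes the values as CPM not normalised further, so this range is uncertain. Replicates correlated across genes at 0.959 to 0.971. Of 14 epithelial markers 4 were in the table and only Krt8 passed the filter, and their summed level was 0.978 to 3.19 CPM in the 16 libraries, so defining epithelial genes were near 0 in cells labelled as a carcinoma line. Of 24 immune markers 9 passed (summed 14.4 to 83.6 CPM) and of 12 endothelial and pericyte markers 6 passed (20.7 to 45.8 CPM), and none was called.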

How the data were processed

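Per the labels' protocols, MC38 RNA went through the QuantSeq 3' mRNA kit, in 24 libraries of 6 groups. Tools named in the submitters' processing notes are limma, Subread, featureCounts, HISAT2, cutadapt 1.7 and FastQC, with the builds GRCm38 and mm10; other versions, the strand setting and the order of steps are not given in the sources used here. The authors deposited normalised log2 CPM values, and the unlogged values of each library sum to 998900 to 999014. All libraries share a lowest value of -3.35 and a highest of 17.0, as after quantile normalisation; depth is not stated and limits the precision of low genes, of which 617 to 1013 per library stood at the lowest value. There were 0 identical pairs of libraries.

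Values were used as deposited, for genes that reached a log2 value of 0 in 4 or more libraries. Limma 3.58.1 (R 4.3.3, statmod 1.5.0) fitted 6 group means over 24 libraries with guide population as a random block (correlation 0.0485) and moderated variances along a mean trend. The block allows for a constant difference between populations. It does not allow for populations of 1 genotype that differ in their response to TNF, so the interaction p-values count libraries and not populations. All tests were two-sided. Limma p-values were Benjamini-Hochberg adjusted over 13272 genes at 0.05, or over the genes kept where an alternative changed them. Guides were compared on 12 means of population and treatment. Single shares were compared by exact permutation, with p-values adjusted over 6 tests. The fit was run on simulated data in which guide populations of a genotype did not differ in response, so it was no check of guide differences. Similar transcripts were found with blastn 2.17.0 in GENCODE M21, in which 13112 tested symbols matched 1 gene, 39 several and 121 none. Alternatives covered the libraries, the block, the filter, a pseudocount of 1 CPM, renormalisation and left-out libraries and populations. Figures used matplotlib 3.10.9 in Python 3.11.15.

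The members, gene lists, comparisons and naming rule were chosen with earlier results of these data known. The text names 14 core genes; called genes outside the listed names with a group mean of at least 2 log2 CPM and both Ado populations on the same side of both control populations; where fewer than 10 in a direction were called, those of smallest p; 1 to 4 of each list with the smallest p; and the 4 listed-name genes of smallest p. Another 29 genes, and those called only for single guides, were named after their values were seen. Some genes these rules name are not reported here.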

Additional observations from a re-analysis of the deposited data

Results flagged for a closer look

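The difference between genotypes was itself tested for every gene, and 26 of 94 named genes were called by limma, all with the smaller response in Ado KO cells. The interactions were -1.49 for Gm24616, -1.55 for Snora30, -1.41 for Snora44, -1.43 for Gm24044, -1.86 for Gm26447, -1.57 for Snora47, -1.81 for Snora3, -1.53 for Snora20, -2.02 for Snora62, -1.60 for Snord13, -1.47 for Snord14c, -2.84 for Snord92, -1.09 for Gm26205 and -1.22 for Gm22748 among snoRNAs. They were -1.50 for Gm23935, -1.53 for Gm24245, -1.48 for Gm24270, -1.50 for Gm24187 and -1.38 for Gm25911 among miRNA-type models, -1.22 for Rnu1b6 and -1.01 for Gm26035. Outside these classes they were -1.09 for Snhg12, -0.97 for Snhg4, -1.67 for Snhg17, -1.24 for Lars2 and -3.58 for Itga11.

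In 16 of 376 groups of 4 libraries 1 library stood far from the other 3 (Dixon's ratio above its 95% critical value), where chance gives about 1 in 20. After TNF 6 h in Ado KO cells these were Dancr at 5.51 log2 CPM and Rpsa at 10.78 in library 1-2, Rgs2 at 0.55 in 1-1, and Bcl2 at 3.63 and Ado at 5.00 in 2-1. After TNF 6 h in control cells they were Il33 at 3.89 in 1-1 and Rpl27a at 11.53 in 2-2. In untreated Ado KO cells they were mt-Nd5 at 7.34 and Nfkbia at 7.63 in 1-1, Egr1 at 3.99 and Apol9b at 2.95 in 2-1, and Lif at -3.35 in 2-2. In untreated control cells they were Gm24245 at 5.22 and Tigar at 4.26 in 2-1, and Ifit3 at 3.68 and Il34 at 6.14 in 2-2.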

How the results depend on the processing

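The count of called genes, 46 in all and 5 outside the listed names, moved by over 1.5 times in several settings: to 73 and 10 with the untreated and 6 h libraries alone, to 70 and 9 with guide populations as fixed terms, to 1 and 0 without Ado KO guide 2 and to 7 and 2 without control guide 1. Outside the listed names it was 16 without control guide 2 and 8 with a pseudocount. With the listed names removed and quantile normalisation repeated it was 3. For single guides it was then 6 with Ado guide 1, 5 with Ado guide 2 and 0 between control guides. The main fit had 8, 11 and 4 such calls outside the listed names. The repeated normalisation setting changed both the genes tested and the normalisation. The cause of these moves was not tested. Leaving out 1 library gave 27 to 52 and 3 to 6 calls for the interaction, 9 to 31 with Ado guide 1, 44 to 81 with Ado guide 2, 5 to 18 between control guides and 0 between Ado guides. Outside the listed names it was 3 without any one of Ado KO TNF 6 h 2-2, control TNF 6 h 1-1 and 1-2, Ado KO untreated 2-2 and control untreated 1-1 and 1-2. Replicate numbers do not pair the libraries (correlations of deviations -0.16 to 0.05), and a replicate block gave 43 and 5 calls. For the named genes no called value changed sign in any setting; 2493 values kept their side of the threshold, 125 lost a call and 18 gained one. Depth limits the genes near the bottom of the scale, Itga11, Snord92, Lif and Tnfaip3 among them.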
